A study of Mus musculus with 2 samples.

Results

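Cycling immune cells of the bleomycin-injured mouse lung were 288 of the 45824 cells kept from both libraries. They were chosen by measured values, namely at least 1 UMI (unique molecular identifier, a count of 1 captured RNA molecule) of *Ptprc*, which encodes the pan-leukocyte antigen CD45, and at least 3 of the 5 cell cycle genes *Mki67*, *Top2a*, *Birc5*, *Cenpf* and *Ube2c* detected. *Sftpc*, the surfactant gene of AT2 cells, had to be under 3% of a cell's UMIs, and *Epcam* (epithelium), *Cdh5* (endothelium) and *Col1a2* (mesenchyme) had to be at 0 UMIs. Of these cells, 277 came from the *Pclaf* WT library, out of 30187 kept cells, and 11 from the *Pclaf* KO library, out of 15637. The same limits without the cell cycle genes gave 8583 gated immune cells, 8239 in WT and 344 in KO.

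Both groups were mice of 8 to 10 weeks, given bleomycin and studied 1 week later. The deposited description gives 1.35 U/kg and the study's text other doses, so the dose of these libraries is uncertain. One group was *Pclaf* WT and the other *Pclaf* KO, with 1 library each and no untreated library, so no test between genotypes is possible and cells are not replicates. The KO allele came from an earlier mouse model, and neither the deleted part nor the number of mice behind each library is given in the sources used here. The study's methods name male mice. Lung cells were sorted by FACS for EPCAM without CD31 and CD45 before 10x Genomics capture, yet gated immune cells made up 27.3% of kept WT cells and 2.20% of kept KO cells. All shares of cells below have exact binomial (Clopper-Pearson) 95% intervals and all UMI sums exact Poisson ones, which cover counting error only.

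The cells were deeper than the rest of the gate. The 277 WT cells held 2431173 UMIs, from 769 to 20501 per cell (median 8382), and the 11 KO cells 119382 UMIs, from 1985 to 18884 (median 12840). Other gated immune cells had medians of 2542 UMIs (WT) and 3235 UMIs (KO). The median mitochondrial share was 3.04% in WT cycling cells against 3.95% in other WT immune cells. Of 163 barcode sequences found in both libraries, 4 belonged to WT and 0 to KO cycling cells. In WT, 61 cycling cells had UMIs of *Xist* only, 142 of Y-linked genes only, 14 of both and 60 of neither. In KO, the numbers were 7, 2, 1 and 1. Among all kept cells, 4797 in WT and 7679 in KO had *Xist* only, and 8903 in WT and 3010 in KO had Y-linked genes only. *Xist* is transcribed from the inactive X chromosome of female cells, so these numbers go against a stated origin from males alone. The mix of *Xist* and Y-linked cells differed between the libraries and cannot be told apart from genotype. Leaving out every cell with *Xist* left 202 WT and 3 KO cycling cells. The cycling share was then 3.14% in WT (2.73 to 3.59) and 1.82% in KO (0.377 to 5.22), and *Pclaf* in WT 586 CPM (550 to 623). Leaving out the cells with shared barcodes left 273 WT and 11 KO cells, and the cycling shares of both libraries, the macrophage and T class shares in WT and the *Pclaf* values stayed inside their counting intervals.

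A cell that divides passes from G1 through S phase, in which DNA is copied, to G2 and mitosis, and most genes of the last stages are transcribed in a wave. In resting cells the DREAM complex holds these genes down, and the MMB and FOXM1 factors activate them later. PCLAF (PCNA-associated factor, PAF15) binds the DNA clamp PCNA at replication forks, and its gene is itself a cell cycle gene. In lung, resident macrophages can renew by division, whereas blood neutrophils no longer divide and lymphocytes divide once they are stimulated.

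The genes of the selection rule are given first, as a description. *Mki67*, which encodes the Ki-67 antigen of dividing cells, was found in 259 of the 277 WT cells and stood at 552 CPM (counts per 1000000 UMIs of the population) in cycling and 12.8 CPM in other immune cells. *Top2a*, a topoisomerase that untangles sister chromosomes, was found in 250 cells and stood at 665 and 11 CPM. *Birc5* (survivin, of the chromosomal passenger complex) was found in 246 cells, *Ube2c* (a ubiquitin-conjugating enzyme of the anaphase-promoting complex) in 204 and *Cenpf* (a kinetochore protein) in 194. *Ptprc* was at 582 CPM in cycling and 1142 CPM in other immune cells, and 31 WT cells entered on a single *Ptprc* UMI. Gated WT cells fell from 578 with exactly 1 of the 5 genes to 125 with 2, 72 with 3 and 88 with 4, and 117 had all 5. In KO, 2 cells had 3 genes, 2 had 4 and 7 had all 5. All 5 genes peak late in the cycle, so cells in G1 or early S phase are largely outside the gate.

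Promoters of the 5 genes and of *Pclaf* are shown because these genes were detected together in the same cells. The 250 bases before each gene's start were taken from RefSeq (GRCm38.p6), where 6 of 6 genes matched. Capitals mark the CHR element bound by DREAM and MMB (searched as TTTGAA and TTCAAA) and the CCAAT box bound by NF-Y (CCAAT and ATTGG).
*Pclaf*: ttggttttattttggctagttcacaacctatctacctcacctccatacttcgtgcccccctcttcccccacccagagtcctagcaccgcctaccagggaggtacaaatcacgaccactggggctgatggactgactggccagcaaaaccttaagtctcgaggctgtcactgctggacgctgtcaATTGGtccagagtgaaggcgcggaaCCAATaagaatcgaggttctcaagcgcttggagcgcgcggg
*Top2a*: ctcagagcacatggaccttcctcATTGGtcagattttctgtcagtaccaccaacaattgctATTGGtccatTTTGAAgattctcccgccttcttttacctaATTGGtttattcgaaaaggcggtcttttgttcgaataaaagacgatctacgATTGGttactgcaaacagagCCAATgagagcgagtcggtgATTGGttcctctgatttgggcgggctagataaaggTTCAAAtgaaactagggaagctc
*Mki67*: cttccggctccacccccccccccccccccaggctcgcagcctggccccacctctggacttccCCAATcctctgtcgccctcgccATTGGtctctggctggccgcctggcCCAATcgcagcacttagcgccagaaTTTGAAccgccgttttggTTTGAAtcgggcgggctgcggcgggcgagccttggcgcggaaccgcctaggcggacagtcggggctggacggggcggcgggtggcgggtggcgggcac
*Ube2c*: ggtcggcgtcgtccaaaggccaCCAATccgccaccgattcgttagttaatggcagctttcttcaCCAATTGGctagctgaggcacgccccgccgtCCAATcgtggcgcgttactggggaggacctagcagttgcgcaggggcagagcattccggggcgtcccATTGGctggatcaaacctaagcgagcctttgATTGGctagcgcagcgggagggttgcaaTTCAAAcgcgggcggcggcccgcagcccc
*Cenpf*: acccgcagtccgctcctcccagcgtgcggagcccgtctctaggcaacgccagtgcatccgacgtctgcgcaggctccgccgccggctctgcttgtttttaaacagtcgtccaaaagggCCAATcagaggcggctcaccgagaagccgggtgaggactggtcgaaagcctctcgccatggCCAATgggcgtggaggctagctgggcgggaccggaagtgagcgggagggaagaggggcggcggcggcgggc
*Birc5*: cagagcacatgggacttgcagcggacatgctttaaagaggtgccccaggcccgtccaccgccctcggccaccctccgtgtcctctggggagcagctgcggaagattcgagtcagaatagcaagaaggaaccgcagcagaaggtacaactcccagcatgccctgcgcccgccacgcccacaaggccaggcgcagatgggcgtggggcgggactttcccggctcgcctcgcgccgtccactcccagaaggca
The *Pclaf* stretch lies at chr9:65890073-65890322 (plus strand) and held 2 CCAAT boxes and 0 CHR elements. That of *Top2a* lies at chr11:99024190-99024439 (minus strand) and held 6 CCAAT boxes and 2 CHR elements. The *Mki67* stretch lies at chr7:135716380-135716629 (minus strand), with 3 and 2, and the *Ube2c* stretch at chr2:164769679-164769928 (plus strand), with 6 and 1. In *Ube2c*, 2 of the CCAAT boxes overlap. *Cenpf* (chr1:189688087-189688336, minus strand) held 2 CCAAT boxes and 0 CHR elements, and *Birc5* (chr11:117848987-117849236, plus strand) held 0 of both. E2F letters (TTTCCCGC, TTTCGCGC, TTTGCCGC and TTTGGCGC, both strands) were at 0 in all 6. Of 32851 promoters of this length, 33.9% held a CCAAT box, 16.0% a CHR element and 1.86% the E2F letters. Among 45 promoters of a G2/M and mitosis list the shares were 86.7%, 42.2% and 4.44%, and among 37 of a G1/S and replication list 54.1%, 13.5% and 24.3%. These are matches of letters, not measured binding.

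Macrophages made up the largest part of the WT cycling cells. Each cell was put in the lineage class whose list of 6 marker genes had the most detected members, at least 2 and more than any other list. By this rule 127 of the 277 cells, or 45.9% (39.9 to 51.9), were of the macrophage class, against 17.8% of all gated WT immune cells. The T class gave 42 cells (15.2% of cycling and 19.8% of immune cells) and the dendritic class 40 (14.4% and 2.84%). The B class gave 12 cells (4.33% of cycling and 23.1% of immune cells). A further 11 cells were of the monocyte, 5 of the neutrophil, 1 of the NK and 1 of the mast cell or basophil class, and 38 had no class. With cells thinned to 1000 UMIs before the gate, classes were called from the thinned counts too. Then 50 cells were left, of which 22.0% were of the macrophage class (11.5 to 36.0). Of these 50, 8 were of the T class and 26 had no class, and the cause of the shift was not tested. With the immune gate and class kept at full depth, 67 cells had 3 cycle genes after thinning. Of these 67, 34 were of the macrophage, 14 of the T and 5 of the dendritic class, and 8 had no class.

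Within a class, the cycling share with all UMIs was highest for dendritic cells and lowest for B and NK cells. It was 17.1% in the dendritic class (40 of 234 cells, 12.5 to 22.5) and 8.65% in the macrophage class (127 of 1469, 7.26 to 10.2). It was 2.57% in the T class (42 of 1632, 1.86 to 3.46) and 1.85% in the monocyte class (11 of 595). It was 0.631% in the B class (12 of 1903, 0.326 to 1.10) and 0.190% in the NK class (1 of 526). The intervals of the dendritic, macrophage, T and B classes do not overlap. Cycling cells were deeper, so every cell was also thinned at random to 1000 UMIs and those with at least 2 cycle genes were counted. The shares were then 10.3% (dendritic), 5.47% (macrophage), 1.79% (T), 1.01% (monocyte), 0.434% (B) and 0.196% (NK). The dendritic (6.74 to 15.0) and macrophage (4.35 to 6.78) intervals overlapped by then. With the 3 cycle genes of the rule, the thinned shares were 2.16% in the dendritic (5 of 232 cells, 0.703 to 4.96) and 2.38% in the macrophage class (34 of 1426, 1.66 to 3.32), and with thinning before the gate 1 of 63 and 11 of 691 cells cycled. The order of these classes was therefore not seen at equal depth with the full rule. Over all gated cells the share was 3.36% in WT (2.98 to 3.77) and 3.20% in KO (1.61 to 5.65). After thinning, with at least 2 cycle genes, it was 2.14% and 2.37%. A difference between the genotypes was not detectable at this depth. With cells thinned before the full gate on 3 cycle genes, the share fell to 0.765% (50 cells) in WT and 0.441% (1 cell) in KO.

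**Figure D1:**
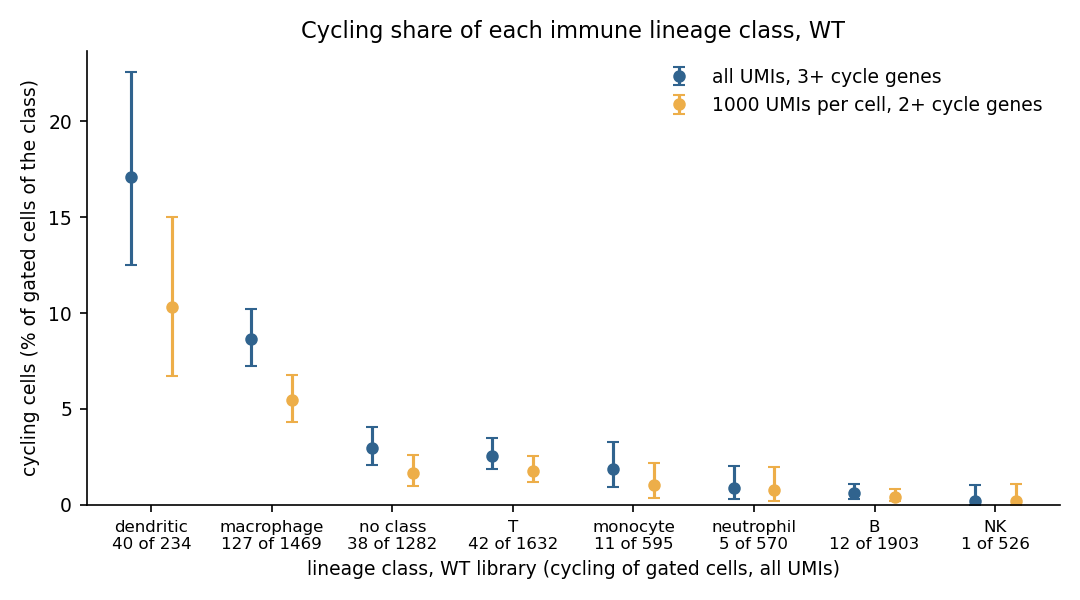
Cycling cells in percent of the gated cells of each lineage class in the WT library, with all UMIs and at least 3 cycle genes (blue) or at 1000 UMIs per cell and at least 2 cycle genes (orange). Bars are exact binomial 95% intervals, and the dendritic (17.1%) and macrophage (8.65%) classes lie above all others in both counts.

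The leading genes of each class were read beside its name. The markers of the class rule lead by construction, among them *C1qa*, *C1qb* and *Ms4a7*, *Xcr1*, *Clec9a* and *Zbtb46*, and *Trac*, *Cd3e* and *Trbc2*. In macrophage-class cells over all other cycling WT cells these were *Syngr1*, *Apoe* (4003 against 327 CPM, a lipid carrier), *Ms4a7*, *Gpnmb* and the complement genes *C1qb* and *C1qa*. The dendritic class was led by *Xcr1*, *Itgae*, *Clec9a* and *Cadm1*, genes of conventional dendritic cells of the first kind, and by *Zbtb46*, a more general dendritic marker. The T class was led by the receptor genes *Trbc1*, *Trac*, *Cd3e* and *Trbc2*. In the B class *Jchain* and *Igha* were among the first 3, but all their 227 and 710 UMIs came from 1 cell. B cell markers of the class list among the 10 leading genes were *Ms4a1*, *Cd79a*, *Cd79b* and *Ebf1*. Of the 10 leading genes of the monocyte class, 4 were hemoglobin genes of the erythroid list and 1, *Plac8*, was its own marker. Of the 2422 UMIs of the erythroid and platelet list in this class, 2419 came from 1 cell. Of the 10 leading genes of the neutrophil class, 7 were of a neutrophil precursor list (*Ctsg*, *Camp*, *Mpo* and others) and 2 its own markers. Neither class, of 11 and 5 cells, is compared further as a cell type. Macrophage-class cells had a median of 4 of their 6 markers and 1 of the second-best list. The classes are cuts on marker numbers: 19 macrophage, 8 dendritic, 0 T and 0 B cells had only 2 own markers, and 29, 14, 10 and 7 cells had 2 or more markers of a second list. Of the 38 cells without a class, 21 had fewer than 2 markers of any list and 17 were tied.

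Lineage markers were also counted one gene at a time, with 6 genes that are members of the class lists and so are not independent of them, and with none for dendritic cells. At 1000 UMIs per cell, *C1qa* (complement, macrophages) was detected in 31.3% of cycling (25.8 to 37.1) and 16.3% of other WT immune cells. *Marco*, a scavenger receptor of alveolar macrophages, was detected in 5.09% (2.81 to 8.39) and 1.66%. *Cd3e* of the T cell receptor complex was detected in 4.36% (2.28 to 7.50) and 6.42%, which differed by less than the counting error. *Cd79a*, of the B cell receptor, was detected in 1.46% (0.398 to 3.68) and 17.6%. *Ncr1*, an NK cell receptor, was detected in 0 of 275 cycling cells (upper limit 1.33%) and 3.1% of the others. *S100a9*, a calprotectin subunit of neutrophils, was detected in 4.00% (2.01 to 7.04) and 7.76%. With all UMIs, 109 of the 277 cells had *C1qa*, 36 *Marco*, 37 *Cd3e*, 22 *Cd79a*, 2 *Ncr1* and 19 *S100a9*. For background, *C1qa* was found in 3 of 42 cycling T-class cells (median depth 6463 UMIs) and *Cd3e* in 1 of 127 cycling macrophage-class cells (median depth 8621 UMIs). *C1qa* was also found in 5 of 12 cycling B-class cells (596 CPM, median depth 7330 UMIs), against 8.78% of other B-class cells. None of these genes or the *C1qa*/*Marco* pair was seen in 85 WT cells, exactly 1 in 167, 2 in 24 and 3 in 1.

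**Figure D2:**
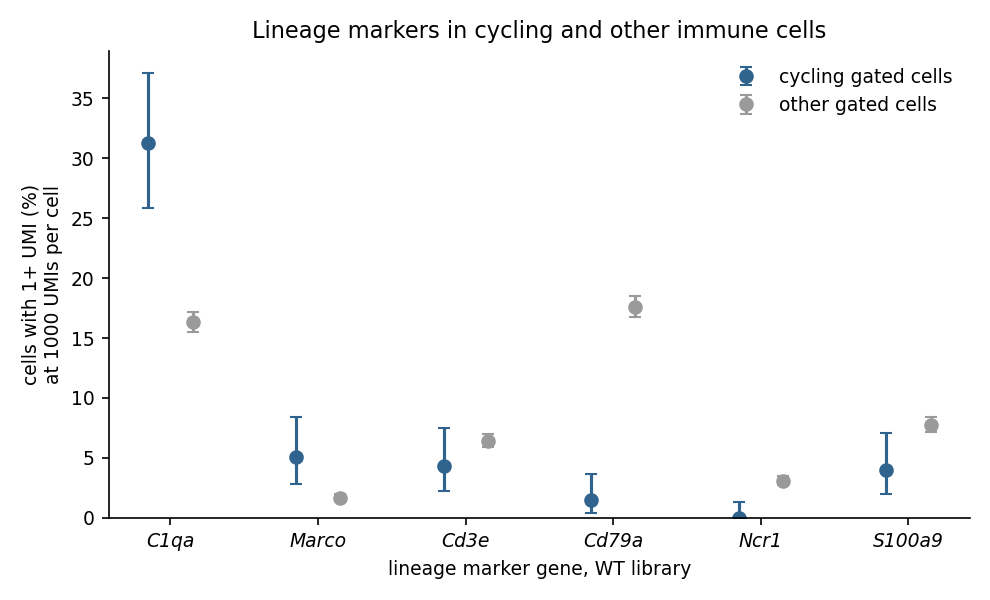
Percent of WT gated immune cells with at least 1 UMI of each lineage marker after thinning to 1000 UMIs, for cycling (blue) and other cells (grey), with exact binomial 95% intervals. *C1qa* (31.3% against 16.3%) and *Marco* lie higher in cycling cells, and *Cd79a* (1.46% against 17.6%) and *Ncr1* lower.

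Macrophage-class cells with *Marco* and those with *C1qa* were both among the cycling cells. This split rests on detection of these genes alone, and whether it separates kinds of lung macrophages was not tested. Of the 127 macrophage-class cells, 86 had *C1qa* without *Marco*, 25 *Marco* without *C1qa*, 6 both and 10 neither. Cells with *Marco* alone cycled at 14.4% (25 of 174, 9.52 to 20.5) and those with *C1qa* alone at 7.36% (86 of 1169, 5.93 to 9.01). After thinning, with at least 2 cycle genes in place of 3, the shares were 8.77% and 4.57% (4.99 to 14.1 and 3.43 to 5.94). *Spp1* (osteopontin), a gene of macrophages in fibrotic lung, was found in 105 of the 127 cells. *Spp1* was thus present both in cells with *Marco* alone and in cells with *C1qa* alone. For background, it was also found in 6 of the 42 cycling T-class and 21 of the 40 cycling dendritic-class cells, at 106 and 126 CPM against 4159 CPM in the macrophage class.

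Among dendritic cells, 29 of 147 cells with *Xcr1* or *Clec9a* and no *Cd209a* cycled (19.7%, 13.6 to 27.1), and 8 of 46 with *Cd209a* alone (17.4%, 7.82 to 31.4). *Ccr7*, which marks mature migrating dendritic cells, was found in 44 cells, of which 1 cycled (2.27%, upper limit 12.0%). Among T-class cells, 13 of 282 with *Cd4* (4.61%, 2.48 to 7.75), 11 of 460 with *Cd8* genes (2.39%, 1.20 to 4.24) and 17 of 874 with neither (1.95%, 1.14 to 3.1) cycled. *Foxp3*, the factor of regulatory T cells, was found in 4 of the 42 cycling cells and *Trdc*, a gamma-delta receptor gene, in 5. *Il1rl1*, the receptor of IL-33, was found in 10 of the 42 cycling cells and in 55 of the other T-class cells. Of T-class cells with *Il1rl1*, 15.4% cycled (7.63 to 26.5), and 12.3% after thinning with at least 2 cycle genes. All 10 cycling cells with *Il1rl1* had *Trac* or *Cd3e*, 9 had *Gata3*, 6 had *Cd4*, 3 had *Foxp3* and 0 had *Trdc*.

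A few cells carried RNA of kinds that the classes do not name. One monocyte-class cell held 2419 UMIs of the erythroid and platelet list (22.0% of its UMIs, *Hbb-bs* 1122), and 1 T-class cell 1024 (11.4%, *Hbb-bs* 446). Granule genes of neutrophil precursors had 431 to 760 UMIs in 3 neutrophil-class and 2 unclassed cells, which also held 306 to 1199 UMIs of *S100a9*. One neutrophil-class cell had 262 UMIs of *Elane*, 192 of *Mpo* and 228 of *Prtn3*, genes of early granules, and another 422 of *Camp* and 227 of *Ngp*, genes of later granules. One B-class cell had 710 UMIs of *Igha*, 2032 of *Igkc* and 227 of *Jchain*, genes of antibody-secreting cells. It passed with 4 of the 5 cycle genes and had 9 UMIs of *Pclaf*.

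*Pclaf* was at a similar level in the cycling cells of every larger lineage class of the WT library. Over all 277 cells it had 1402 UMIs, or 577 CPM (547 to 608), and was found in 226 cells (81.6%, 76.5 to 86.0), with 0 to 26 UMIs per cell and a median of 4. The level was 593 CPM in the macrophage class (550 to 639, 108 of 127 cells) and 618 CPM in the dendritic class (544 to 699, 36 of 40 cells). It was 609 CPM in the T class (523 to 705, 34 of 42 cells) and 495 CPM in the B class (366 to 655, 7 of 12 cells). Cells without a class had 543 CPM (463 to 632). The monocyte class, not compared as a cell type, was at 510 CPM (376 to 676, 9 of 11 cells). The neutrophil class, also not compared, was lower, at 172.5 CPM (69.4 to 355), with 7 UMIs in 3 of 5 cells. The log2 ratio of the macrophage over the dendritic class was -0.06 (-0.27 to 0.15), over the T class -0.04 (-0.28 to 0.21) and over the B class 0.26 (-0.16 to 0.71). At this depth no difference of the macrophage class from the dendritic, T or B class could be seen, with intervals that reach up to 0.71 log2 units.

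*Pclaf* was not used by the selection rule but is also a cell cycle gene, so its level is not independent of that rule. In other WT immune cells it had 342 UMIs over 7962 cells (12.4 CPM, 11.1 to 13.8), and was detected in 2.40% of them. The log2 ratio of cycling over other cells was 5.54 (5.36 to 5.71) over all classes, 5.87 in the macrophage, 5.23 in the T, 5.52 in the B and 4.08 (3.60 to 4.60) in the dendritic class. With cells gated at full depth and then thinned to 1000 UMIs, *Pclaf* was at 549 CPM in cycling and 10.4 CPM in other cells. Random thinning of a fixed group does not change its expected CPM, so these values are no check of the gate. With thinning before the gate, *Pclaf* was at 560 CPM (372 to 809) in 50 cycling and 21.4 CPM (18.0 to 25.3) in 6485 other cells. The level rose with the number of cycle genes, from 4.27 CPM with 0 to 35.9 with 1, 178 with 2, 429 with 3, 602 with 4 and 618 with all 5. Just outside the threshold, the 125 cells with 2 cycle genes had *Pclaf* in 39.2%. Just inside, the 72 cells with 3 had it in 59.7%. For background, ciliated cells with 0 cycle genes had *Pclaf* in 3 of 150 WT cells (2.00%, median depth 5659 UMIs) and 16 of 1104 KO cells (1.45%), or 3.31 and 1.86 CPM. Immune cells with 0 cycle genes had 4.27 CPM in WT and 1.59 CPM in KO, near that level.

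Cycling cells of other WT tissues, chosen by at least 3 cycle genes, at least 1 UMI of their own marker and 0 UMIs of *Ptprc* and of the markers of the other tissues, had lower *Pclaf*. It was 199 CPM (120 to 311) in 13 *Epcam* cells, 291 CPM (241 to 348) in 83 *Cdh5* cells and 322 CPM (243 to 418) in 19 *Col1a2* cells. The log2 ratios of cycling immune over these were 1.54 (0.89 to 2.27), 0.99 (0.72 to 1.27) and 0.84 (0.46 to 1.25). These populations differ in depth, with medians of 6576, 4485 and 8949 UMIs, and their part in the difference was not tested.

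**Figure D3:**
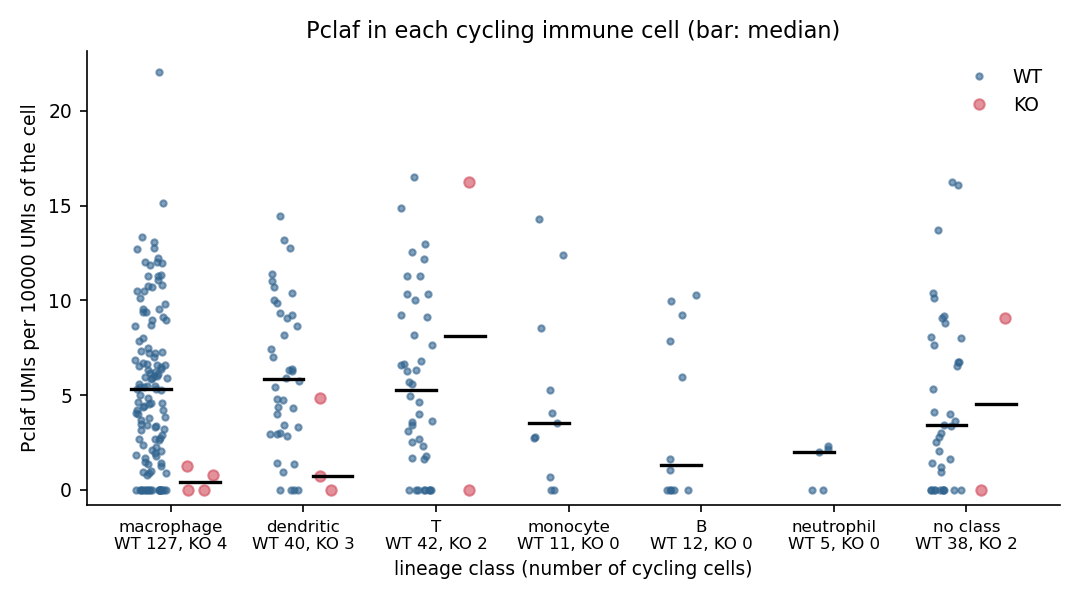
*Pclaf* UMIs per 10000 UMIs in each cycling immune cell by lineage class, WT (blue) and KO (red), with bars at the median. WT medians are 5.30 in the macrophage, 5.82 in the dendritic and 5.25 in the T class, and of the KO cells 5 are at 0.

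In the KO library *Pclaf*, the targeted gene, was lower in cycling immune cells but not at 0. The 11 cells held 27 *Pclaf* UMIs (226 CPM, 149 to 329), against 577 CPM in WT, and the ratio of KO to WT on the log2 scale was -1.35 (-1.96 to -0.80). Per cell, 5 had 0 UMIs, 2 had 1, 1 had 2, 1 had 4, 1 had 8 and 1 had 11, so that 6 of 11 cells had the gene. The cell with 11 was of the T class with *Cd3e*, *Trac* and *Cd8a*, and the cell with 8 had no class. The 4 macrophage-class cells held 3 *Pclaf* UMIs (53.7 CPM, 11.1 to 157; log2 ratio -3.46, -5.75 to -1.91), and the 3 dendritic-class cells 5 (122 CPM, 39.5 to 284; -2.34, -3.98 to -1.10). The 2 T-class cells held 11 UMIs in 1 cell (944 CPM, 472 to 1690; 0.63, -0.40 to 1.51). The 2 cells without a class held 8 UMIs, with a log2 ratio of 0.45 (-0.79 to 1.46). The 2 cells with the most held 19 of the 27 UMIs. The 3 KO cells without *Xist* held 1 *Pclaf* UMI, and against WT cells without *Xist* the log2 ratio was -4.30 (-9.61 to -1.82). After thinning to 1000 UMIs before the gate, 1 KO cell with 2 *Pclaf* UMIs was left, and the log2 ratio was 1.84 (-1.28 to 3.82). The cycle genes of the rule, which the gate required, stood in KO at 695 CPM (*Mki67*) and 754 CPM (*Top2a*), log2 ratios of 0.33 (-0.00 to 0.65) and 0.18 (-0.14 to 0.49). The replication gene *Pcna* was lower in KO, with -0.89 (-1.85 to -0.07). A list of G1/S genes was at 1684 CPM in KO against 2795 CPM in WT, and a G2/M list at 10211 against 8291 CPM. The part of cell phase in the *Pclaf* difference was not tested. UMIs near the 3′ end of a transcript check a knockout only where that end is deleted, which is not given, so the 27 UMIs do not show whether whole *Pclaf* RNA was made. In KO cycling *Epcam* cells *Pclaf* was at 103 CPM (141 cells), a log2 ratio to WT of -0.94 (-1.63 to -0.18), and in KO cycling *Col1a2* cells at 204 CPM (13 cells), with -0.66 (-1.36 to 0.01).

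The 11 KO cells were 4 macrophage, 3 dendritic and 2 T-class cells and 2 without a class, from 55, 16, 85 and 59 gated cells. The cycling share was 7.27% (2.02 to 17.6) in the macrophage, 18.8% (4.05 to 45.6) in the dendritic and 2.35% (0.286 to 8.24) in the T class. None of 43 B-class cells cycled (upper limit 8.22%). All 4 macrophage-class cells had *Lyz2* (lysozyme, 249 to 381 UMIs) and *Spp1*. Of them, 3 had *Marco* (2, 2 and 8 UMIs) with *Chil3*, an alveolar macrophage gene (84, 48 and 79 UMIs), and the fourth had 12 UMIs of *C1qb* and 1 of *C1qa*. No lineage class had 10 cycling cells in both libraries, so no genes were ranked by KO over WT. Markers of epithelium moved with genotype. The list of 10 epithelial genes was at 2714 CPM in KO cycling cells (7 of 10 genes, led by *Sftpc* with 136 UMIs, with *Epcam*, *Foxj1* and *Krt18* at 0) and 274 CPM in WT (8 of 10 genes, led by *Scgb1a1*, with *Epcam* and *Foxj1* at 0). In other KO immune cells it was at 24636 CPM. Its part in the differences between genotypes was not tested.

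The cycling classes differed in their levels of phase genes. The rule itself asks for late genes, and 29 of the 277 WT cells, 14 of them of the macrophage class, and 0 of the 11 KO cells had more UMIs of a G1/S list than of a G2/M list. The summed level of a list of 48 G2/M and mitosis genes without the 5 rule genes was 7774 CPM in macrophage-class cells (7616 to 7935), 8328 CPM in dendritic-class cells (8049 to 8613) and 11996 CPM in T-class cells (11603 to 12398). A list of 42 G1/S and replication genes was at 2789, 2472 and 3478 CPM, and 20 replication histones at 2486, 3009 and 4111 CPM. Histone genes are near-identical copies, so UMIs of single members are uncertain. T-class cells were thus the highest on all 3 summed lists. Gene by gene, the G2/M list had a median log2 ratio of -0.20 for macrophage over T and -0.29 for dendritic over T. For dendritic over macrophage its median was -0.23, with 17 of 48 genes above 0. Most of its genes thus ran against the order of the dendritic and macrophage sums. In B-class cells the 3 lists were at 5173, 2647 and 2142 CPM. In the 11 KO cells the G1/S list was at 1684 CPM (1459 to 1933) against 2795 CPM (2728 to 2862) in WT, and the histones at 5311 CPM (4905 to 5741) against 2704 CPM (2639 to 2770). The G2/M list was at 10211 CPM (9646 to 10801) against 8291 CPM (8177 to 8406). Of 41 G1/S genes tested (at least 10 UMIs in both groups together), 20 were lower in KO by at least 1 log2 unit and 0 higher, where 16.9% of all 10547 genes tested were lower and 9.33% higher by that much. The intervals of 6 of the 41 lay below 0, and 5 were at 0 in 1 group. *Rrm2* (ribonucleotide reductase) had a log2 ratio of -1.74 (-3.37 to -0.50), *Dut* -1.44 (-2.66 to -0.45), *Tyms* (thymidylate synthase) -1.19 (-2.52 to -0.13) and *Pcna* -0.89 (-1.85 to -0.07). The list's median was -0.96, and -0.62 with its 5 genes at 0 in 1 group set at 3 counts, against -0.08 over all genes. Of 20 histones, 8 were higher by that much and 1 lower. Within classes, the G1/S list was at 1790 CPM (1456 to 2177) in the 4 macrophage-class cells of KO against 2789 CPM in WT. It was at 1217 CPM in the 3 dendritic-class cells against 2472 CPM, and at 2318 CPM (1528 to 3373) in the 2 T-class cells against 3478 CPM (3268 to 3698), where the intervals overlap. Cell phase and genotype cannot be told apart in so few cells.

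**Figure D4:**
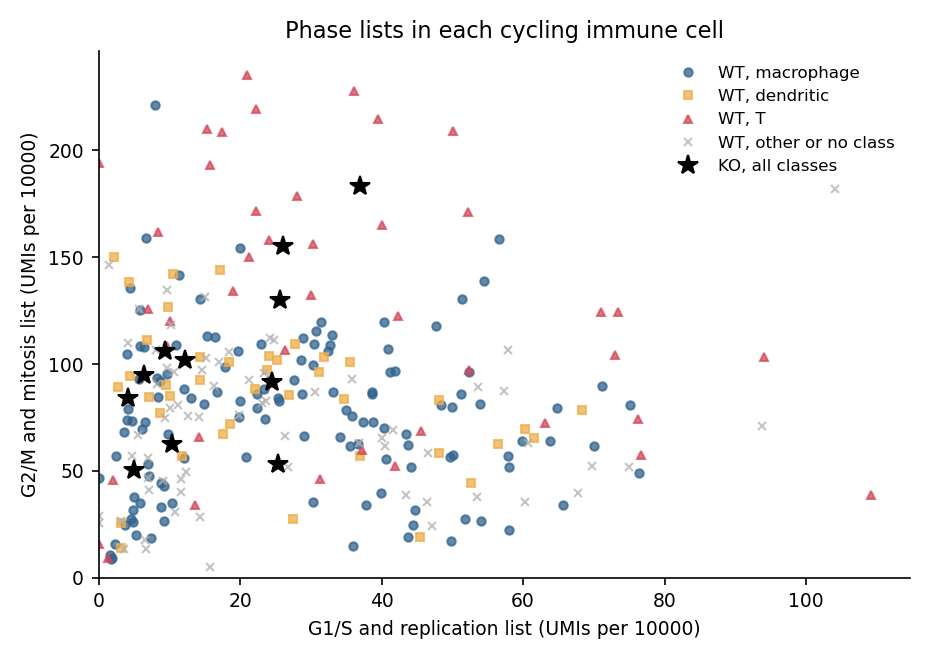
UMIs per 10000 of the G1/S list (x axis) and the G2/M list (y axis) in each cycling immune cell, WT by class and KO as black stars. T-class cells reach the highest G2/M values (median 124 against 78.4 in the macrophage class), and the KO cells have a median of 12.2 on the G1/S list against 23.1 in WT.

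Cycling cells were then set beside other WT cells of the same class. This contrast is the one the selection rule made, so it is described and nothing is read from it about the lists. A gene counted as tested with at least 10 UMIs in both groups together, and as higher or lower from 1 log2 unit. In the macrophage class 8.62% of 12479 genes were higher and 10.3% lower. Of the G2/M list 47 of 48 genes were higher (median log2 ratio 5.24), of the G1/S list 39 of 42 (2.43) and of the histones 18 of 20 (3.82), beside a median of -0.00 over all genes tested. In the dendritic class, where 10.2% of 9064 genes were higher and 11.3% lower, the numbers were 46 of 47 (3.86), 30 of 40 (1.47) and 16 of 17 (4.68). In the T class, where 12.3% of 11981 genes were higher and 16.9% lower, they were 45 of 47 (5.35), 40 of 41 (2.81) and 17 of 19 (3.59). Over all classes together 8.17% of 15406 genes were higher and 18.6% lower, with 40 of 42 G1/S genes higher (2.56). Epithelial markers were lower in cycling cells, with *Scgb1a1* the most abundant and *Epcam* (by the gate) and *Foxj1* at 0 in them. The list of 10 was at 285 against 885 CPM in the macrophage (7 of 9 genes tested lower, median -1.39), 204 against 632 CPM in the dendritic (5 of 6, -2.28) and 218 against 600 CPM in the T class (7 of 8, -1.87, and -0.78 with 3 genes at 0 in 1 group set at 3 counts). *Malat1*, a nuclear RNA, had -0.56, -0.47 and -0.92. Their part in the values below was not tested. The genes with the highest ratios in the macrophage class were *Hist1h3c* (7.54), a replication histone, *Nusap1* (7.36), *Aspm* and *Prc1*, spindle proteins, and *Esco2*, *Ccna2*, *Shcbp1*, *Kifc1*, *Mxd3* and *Hist1h2ab*. In the dendritic class they were *Hist1h3c* (6.64), *Kif4*, *Hist1h2ap*, *Hist1h2ae*, *Nusap1*, *Hist1h1b*, *Prc1*, *Anln*, *Cdca3* and *Cdca8*. In the T class they were *Hmmr* (8.03), *Neil3*, *Cdca3*, *Hist1h3c*, *Hist1h2ab*, *Hist1h1b*, *Hist1h2ae*, *Ccna2*, *Nusap1* and *Hbb-bt*, whose 230 UMIs came from 1 cell.

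The regulators of the cycle differed among themselves. Of 13 subunits of DREAM and MMB, 7 were higher in cycling macrophage-class cells (median 1.08), 7 in dendritic-class (1.08) and 6 in T-class cells (0.98), where 1 was lower, beside 8.62%, 10.2% and 12.3% of all genes higher in these classes. *Foxm1*, the activator of mitotic genes, had a log2 ratio of 5.95 (4.73 to 7.46) in the macrophage and 5.44 (4.02 to 7.09) in the T class, and *Mybl2* of MMB 2.62 and 4.61. *Rbl1* (p107) had 2.10, 1.80 and 1.45 in the macrophage, dendritic and T class, and *Rbl2* (p130), the pocket protein of resting cells, 0.50 (0.04 to 0.94), -0.21 (-1.40 to 0.85) and -0.42 (-1.06 to 0.16). *Cdkn2c*, an inhibitor of CDK4 and CDK6, had 3.43, 3.13 and 2.96. The D cyclins *Ccnd1*, *Ccnd2* and *Ccnd3*, which answer growth signals, had ratios below 0 in all 3 classes, but the intervals of *Ccnd3* held 0 in the macrophage (-0.20, -0.49 to 0.07) and dendritic (-0.23, -0.74 to 0.26) classes. *Ccnd1* had -1.20 (-1.69 to -0.75) in the macrophage class and *Ccnd3* -1.70 (-2.12 to -1.31) in the T class, where *Cdkn1b* (p27) had -1.15 (-2.03 to -0.38).

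Receptors of growth signals are listed next. Of the mitogen receptor list, 0 of 15 genes were higher and 4 lower in the macrophage class (median -0.46), and 0 of 12 were higher and 6 lower in the dendritic class (-1.15), beside 8.62% higher and 10.3% lower of all genes in the former and 10.2% and 11.3% in the latter. *Csf1r*, the receptor on which macrophages depend, was at 263 against 386 CPM (-0.55, -0.72 to -0.38). *Flt3*, its counterpart in dendritic cells, was at 167 against 309 CPM (-0.88, -1.28 to -0.50), and *Flt3* is also 1 of the markers of that class. In the T class, 2 of 16 genes were higher and 4 lower, beside 12.3% and 16.9% of all genes, so the number higher was near the background. The T-class median was -0.04, and 0.54 with the 2 genes at 0 in 1 group set at 3 counts. *Il7r*, of resting T cells, was at 252 against 697 CPM (-1.47, -1.82 to -1.14) and *Il2rb*, of stimulated ones, at 184 against 122 CPM (0.59, 0.16 to 0.99). The p53 target list had a median of 0.52 in the macrophage, -0.47 in the dendritic and -0.25 in the T class, with 0 of 13, 0 of 11 and 1 of 13 genes higher and 0, 2 and 1 lower. *Cdkn1a* (p21) had 0.67 (0.52 to 0.81) in the macrophage and -0.88 (-1.46 to -0.33) in the dendritic class.

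Lists of macrophage subtypes were set beside the split by *Marco* and *C1qa*. Of 10 interstitial macrophage genes, 0 were higher and 4 lower in cycling cells (median -0.78), beside 8.62% and 10.3% of all genes in this class, led by *Folr2* (-1.79), *Pf4* (-1.45) and *Apoe* (4003 against 9873 CPM, -1.30). Of 10 alveolar macrophage genes, 0 were higher and 0 lower (median 0.13), with *Plet1* at 0.25 (0.07 to 0.42), *Pparg* at 0.38 (0.15 to 0.61) and *Chil3* at -0.18 (-0.25 to -0.11). Of 10 profibrotic macrophage genes, 0 were higher and 0 lower (median -0.59). The intervals of 8 of these lay below 0 and of 2 above, and those of the interstitial genes below 0 in 10 of 10, where 1323 of all 12479 genes tested had intervals below 0 and 2107 above. The interstitial list holds *C1qa*, *C1qb*, *C1qc* and *Ms4a7* and the alveolar list *Marco*, which the class rule used. The 6 markers of that rule had a median of -0.55, with the intervals of 5 below 0, and cycling cells were deeper (median 8621 against 5602 UMIs), and the part of this in the lists was not tested. *Spp1* was at 4159 against 4321 CPM (-0.06, -0.10 to -0.01), *Gpnmb* at 294 against 569 CPM and *Fabp5* at 1368 against 2251 CPM. The other way, *Ctsk* (cathepsin K) was at 432 against 267 CPM (0.70, 0.55 to 0.84) and *Cd9* at 2102 against 1806 CPM (0.22, 0.16 to 0.28).

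The genes with the lowest ratios in the macrophage class were *Cxcl13* (1 UMI in cycling and 242 in other cells, the latter in 21 cells), *Ccl22*, *Ikzf3* and *Fscn1* (0 UMIs in cycling and 97, 91 and 87 in other cells), and *Cd163*, a scavenger receptor (1 and 163 UMIs). *Ccl22* and *Fscn1* are genes of mature dendritic cells and *Ikzf3* is a lymphocyte gene, found in 29, 23 and 51 other macrophage-class cells. In the dendritic class, *Ccl5*, *Fscn1*, *Il12b*, *Adgrg6* and *Apol7c* were at 0 in cycling cells and had 434, 215, 156, 90 and 63 UMIs in other cells. Against a floor of 3 counts in cycling cells, *Ccl5* was at least 52.2-fold, *Fscn1* at least 25.9-fold and *Il12b*, a subunit of IL-12, at least 18.8-fold lower. *Fscn1* and *Il12b* are known from mature dendritic cells, and of the 44 gated dendritic-class cells with *Ccr7* 1 cycled, as given above. In the T class the lowest were *C1qc*, a macrophage gene with UMIs in 76 other T-class cells and 0 in cycling cells, and *Setbp1*, *Kdm5b*, *Klhdc1* and *Dse*.

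**Figure D5:**
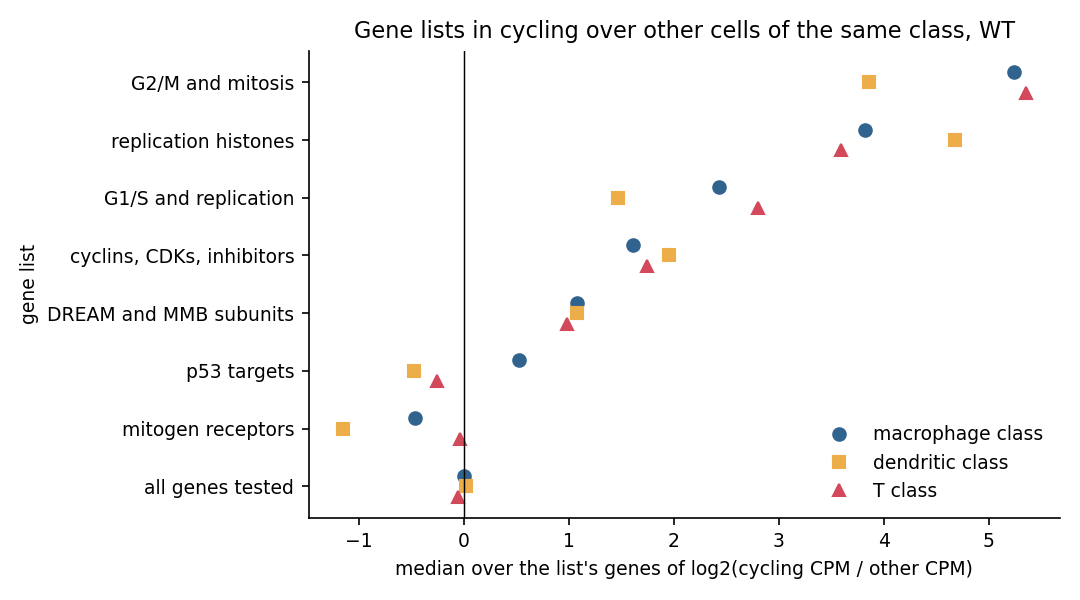
Median log2 ratio of CPM, cycling over other cells of the same WT class, for each gene list (rows) in the macrophage, dendritic and T classes, without the 5 rule genes. The mitotic, histone and replication lists lie from 1.47 to 5.35, the DREAM and MMB subunits near 1, and the mitogen receptors from -1.15 to -0.04 (0.54 in the T class with 2 genes at 0 in 1 group set at 3 counts), beside all genes tested near 0.

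The 2 largest cycling classes were compared with each other, macrophage over T, where 21.5% of 9449 genes were higher and 15.7% lower. The median over all genes was -0.01. Of the G1/S list, 3 of 41 genes were higher and 5 lower (median -0.30), of the G2/M list 0 of 48 and 3 (-0.20) and of the histones 0 of 20 and 7 (-0.77). Of 13 p53 targets, 6 were higher and 1 lower (0.99), led in level by *Cdkn1a* at 384 against 85.1 CPM (2.18, 1.59 to 2.82). *Ccnd1* was higher in the macrophage class (1.80, 0.15 to 4.13) and *Ccnd2* in the T class (-1.51, -2.08 to -0.93). Among the highest outside the lineage lists were *Mgl2* (292 UMIs, a lectin), *C3ar1*, *Mmp14*, *Syngr1*, *Itgam*, *Pirb* and *Gatm*, all with 0 UMIs in the T class, and *Pdpn* and *Bcl2a1a*, with 1. *Mgl2* was at least 24.2-fold higher against a floor of 3 counts. The lowest were *Ikzf3* (78 UMIs) and *Nkg7* (68 UMIs, cytotoxic granules), both with 0 in the macrophage class, and *St6galnac3*, *Ptprcap*, *Trbc1*, *Ms4a4b*, *Thy1*, *Kcnq5*, *Skap1* and *Il2rb*.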

How the data were processed

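For each library the authors deposited a matrix of raw UMI counts (genes by barcodes), made with Cell Ranger (3.1.0 in the submitters' processing notes, 5.0.0 in the matrix headers) and STAR on GRCm38, not normalized. Depth was 98171818 UMIs over 30669 barcodes in WT and 111267567 UMIs over 17172 in KO, for 31053 genes, and 0 columns lacked a sample. Cells with over 200 and under 5000 genes and under 20% mitochondrial UMIs were kept, as in the study's methods. Members and lists were chosen with earlier results of these data known.

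UMIs were summed over cells and divided by all UMIs of those cells (CPM). Log2 ratios carry an exact 95% interval, conditional on the sum of the 2 Poisson counts, and a count of 0 was bounded by a floor of 3 counts. With 1 library per genotype no test was run. Lists were read over genes with at least 10 UMIs. The named genes are those of the selection rule and the lists, and, per lineage class with 20 or more cycling cells, the 10 highest and 5 lowest ratios of cycling over other cells with 50 or more UMIs outside the 5 cycle genes, and the 10 highest and 10 lowest of macrophage over T outside the lineage lists, of which 1 is not reported here. Some list genes are named for their role in the class. The study's treatment of doublets is not given in the sources used here, and none were removed. Scrublet called 7.76% of WT and 2.70% of KO cells, fewer than the 24.2% and 12.5% expected from cell numbers, and 6 of the 277 and 0 of the 11 cycling cells. Thinning drew 1000 UMIs per cell and left out shallower cells. The ratio code was tested on simulated data. Alternatives covered filters, the gate, classes, denominators and TMM scaling (edgeR 4.0.16). The removal of cells with markers of a second lineage, shared barcodes or *Xist* UMIs was chosen after seeing the data. Work was done in Python 3.11.15 with numpy 2.4.6, scipy 1.17.1, pandas 2.3.3 and scanpy 1.11.5, and R 4.3.3.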

Additional observations from a re-analysis of the deposited data

How the results depend on the processing

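Of 117 values recomputed under alternatives for 8 results, 99 stayed inside the counting interval of the main value, 17 moved outside it and 1 changed sign. The share of WT immune cells that cycled (3.36%) was 4.88% with at least 2 cycle genes, 2.49% with at least 4, 3.80% with *Ptprc* at 2 or more UMIs, 4.20% without limits on *Epcam*, *Cdh5* and *Col1a2*, and 0.765% with cells thinned to 1000 UMIs before the gate. Thinning also gave 0.441% in KO (3.20%), a macrophage share of 22.0% (45.9%), a log2 ratio of *Pclaf* in cycling over other cells of 4.71 (5.54), a G1/S median of 1.86 (2.56) and a *Pclaf* ratio of KO over WT of 1.84 (-1.35), which rested on 50 WT cells and 1 KO cell. Without cells that held *Xist* UMIs that ratio was -4.30, from 1 UMI in 3 KO cells. The macrophage share of 22.0% used classes that were also called from the thinned counts. A minimum of 3 lineage markers gave a macrophage share of 39.0%. *Pclaf* in WT cycling cells (577 CPM) was 481 CPM with at least 2 cycle genes, 612 with at least 4, 502 without the limits on other tissues and 705 without mitochondrial and ribosomal protein genes in the denominator. Its ratio over other cells was 5.97 with at least 2 and 4.98 with at least 4 cycle genes. The T share stayed inside its interval in 15 of 15 alternatives. The causes were not tested. Leaving out a replicate could not be done with 1 library per genotype. No paired analysis was possible because each genotype has 1 library. Counts in the 11 KO cells limit every value that rests on them.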
